A study of Mus musculus with 20 samples.

Results

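Ribosomal protein genes encode the proteins of the large (Rpl and Rplp) and small (Rps and Rpsa) subunits of the cytoplasmic ribosome. They were taken here as the protein-coding genes of GENCODE M21 (mouse genome build mm10) whose symbol follows the plain ribosomal protein pattern, such as Rpl4, Rplp0, Rps6 or Rpsa. The pattern gave 80 genes of 21951 protein-coding genes, 49 of the large subunit and 31 of the small subunit. A peak was given to a gene when its summit lay in the gene body on the same strand. Of the 80 genes, 63 had a peak in at least 1 of the 10 lists and 17 had none.

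The genes are expressed in every growing cell, and their messenger RNAs are among the most abundant. Most are short genes with short exons and short introns, and several carry small nucleolar RNAs (snoRNAs), the guides of ribosomal RNA modification, inside their introns. N6-methyladenosine (m6A) is placed on nuclear transcripts by a methyltransferase whose catalytic subunit is Mettl3. The mark is often found within the sequence GGAC, in long exons and near stop codons. Ythdc1 is the nuclear protein that binds m6A.

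The study profiled m6A in RNA of the chromatin fraction of C57BL/6 mouse embryonic stem cells grown with LIF and the inhibitors CHIR99021 and PD0325901. The 5 groups of immunoprecipitated libraries were Mettl3 controls, the Mettl3 knockouts KO1 and KO2, Ythdc1 controls, and cells with a conditional knockout of Ythdc1 (cKO), with 2 libraries each. How the lines were made, whether KO1 and KO2 are single clones, how the cKO was induced, and whether paired libraries of a group are separate cultures were not stated in the labels. The p-values thus reflect no more than the library-to-library spread, which may be technical. Peak lists give no expression level, so the knockouts could not be checked on Mettl3 or Ythdc1 itself, and a peak that persists in a knockout is a called peak with no proof of m6A. The 10 input samples were not analysed here. Of 10 embryonic stem cell markers, including Pou5f1, Sox2 and Nanog, 8 to 10 had a peak in each library, and of 8 fibroblast markers 3 to 6 did.

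The number of ribosomal protein genes with a peak was higher in all 4 Mettl3 knockout libraries than in both Mettl3 controls, and lower in both cKO libraries than in both Ythdc1 controls. In the Mettl3 controls 16 and 25 of the 80 genes had a peak. In KO1 the numbers were 28 and 39, and in KO2 they were 43 and 53. The Ythdc1 controls held 44 and 43 such genes, and the cKO libraries 23 and 22. The Mettl3 control values were thus close to those of the cKO, and the KO2 values close to those of the Ythdc1 controls. Fibroblast markers with a peak numbered 6 of 8 in both Mettl3 controls, 3 in each knockout and Ythdc1 control library, and 4 in each cKO library. Col1a2 had a peak in the Mettl3 controls alone, and Col1a1 and Lox there and in 1 cKO library each. The 6 libraries with 3 of these markers thus held 28 to 53 ribosomal protein genes with a peak and the 4 libraries with more held 16 to 25. Stem cell markers with a peak numbered 8 of 10 in both Mettl3 controls, 9 and 8 in KO1, and 8 and 9 in KO2. They numbered 10 in both Ythdc1 controls and 8 in both cKO libraries. Lin28a had a peak in both Ythdc1 controls, KO1 replicate 1 and KO2 replicate 2, and Dppa5a in the Ythdc1 controls alone. The part of these marker differences in the result was not tested.

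The means were 20.5 ± 6.36 genes in the Mettl3 controls (SD, n = 2) and 40.75 ± 10.3 in the knockouts (SD, n = 4). The groups did not overlap, but the difference of 20.25 genes did not pass an exact permutation test (two-sided p = 0.133, adjusted p = 0.444 over 4 tests, 15 splits, smallest possible p 0.0667). The Ythdc1 controls held 43.5 ± 0.707 genes (SD, n = 2) and the cKO 22.5 ± 0.707 (SD, n = 2). The groups did not overlap here either, and the difference of -21 genes had the smallest p that 6 splits allow (exact permutation, two-sided p = 0.333, adjusted p = 0.444). No test of these designs could reach 0.05. With peaks of at least 3-fold alone the differences were 4.75 and -7 genes.

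Large-subunit genes with a peak numbered 14.5 ± 6.36 in the Mettl3 controls (SD, n = 2) and 29.75 ± 6.18 in the knockouts (SD, n = 4), with no overlap. Small-subunit genes numbered 6 in both controls and 6, 10, 12 and 16 in the knockout libraries, so that KO1 replicate 1 equalled the controls. In the Ythdc1 comparison the large subunit had 30 ± 1.41 genes in the controls and 16 ± 0 in the cKO, and the small subunit 13.5 ± 0.707 and 6.5 ± 0.707 (SD, n = 2 each), with no overlap in either. These subunit values were not tested.

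Over all protein-coding genes the share with a peak lay between 42.6% and 46.6% in every library. It was 45.2% ± 0.245 in the Mettl3 controls (SD, n = 2), 44.3% ± 1.91 in the knockouts (SD, n = 4), 46.3% ± 0.338 for the Ythdc1 controls and 44.4% ± 0.0419 for the cKO (SD, n = 2 each). The ribosomal protein genes ranged from 20% in Mettl3 control replicate 1 to 66.25% in KO2 replicate 2. Across all 10 lists together, 78.75% of the ribosomal protein genes had a peak against 55.5% of all protein-coding genes, and 13 (16.25%) had one in every list against 34.0% of all protein-coding genes. Ribosomal protein genes therefore had a peak somewhere more often and everywhere less often than protein-coding genes as a whole.

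**Figure D1:**
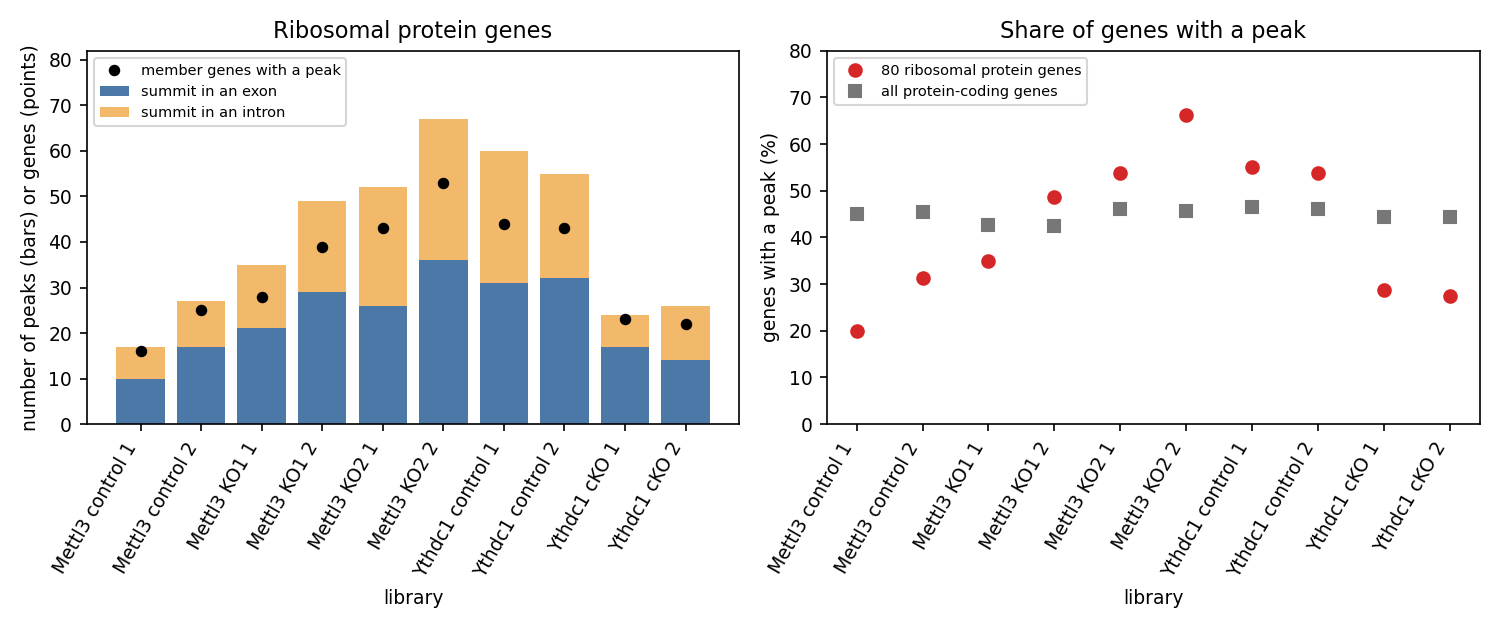
Left, exon peaks (blue) and intron peaks (orange) of the ribosomal protein genes per library, stacked, with the number of genes that have a peak as black points. Right, the percentage of the 80 ribosomal protein genes (circles) and of all protein-coding genes (squares) with a peak in each library, where the circles range from 20% to 66.25%.

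The local background under the peaks differed between the groups as well. A peak's fold enrichment and p-value together give the pile-up of reads at its summit and the local background the caller set it against, and for all 412 peaks of these genes the pile-up came out as a whole number. In each library the median background at ribosomal protein peaks was above the value most common in the same list, while single regions lay near it. At the 13 regions with a peak in all 10 lists, the median ratio of local to most common background was 6.35 and 5.93 in the Mettl3 controls. It was 7.54 and 7.17 for KO1, 11.7 and 10.8 for KO2, 7.26 and 6.88 for the Ythdc1 controls, and 4.54 and 4.06 for the cKO. These medians take the peak of highest fold where a library had more than 1 in a region. With the peak nearest to the region's summit, chosen after seeing the data, the Mettl3 controls had 7.23 and 5.93 and KO1 8.08 and 7.23. Over all peaks of these genes the Mettl3 controls had 6.35 and 5.42 and KO1 6.65 and 5.99, which overlap. In all 3 versions both KO2 libraries were above both Mettl3 controls and both cKO libraries below both Ythdc1 controls. The part of this background in the gene counts was not tested.

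**Figure D2:**
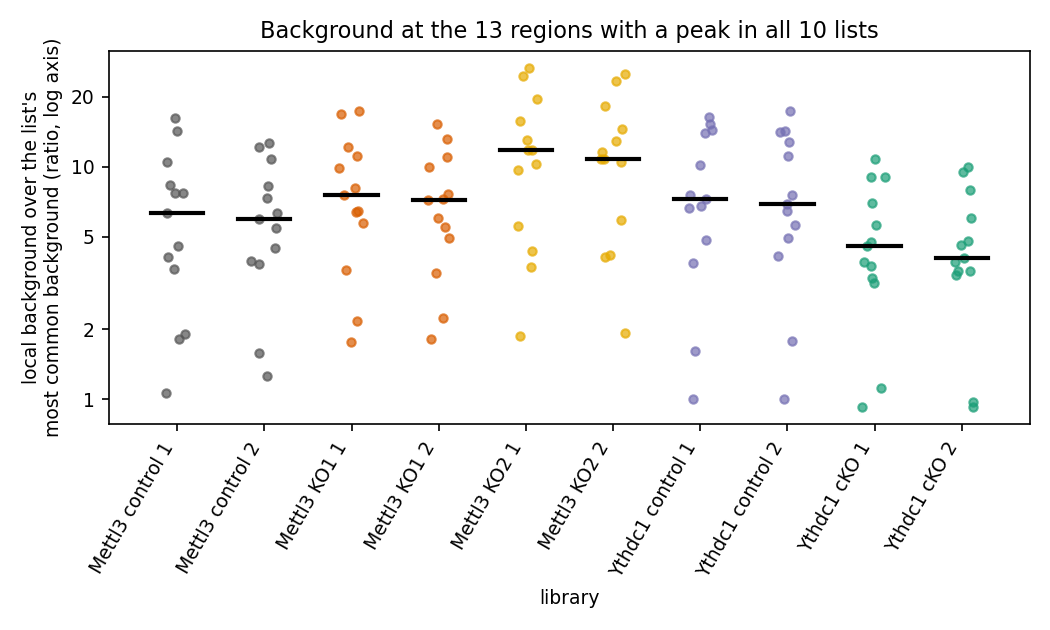
Ratio of the local background to the most common background of the same list (log axis) at the 13 ribosomal protein regions with a peak in all 10 lists. Each point is a region, colours mark the groups, and black lines are medians, which run from 4.06 in cKO replicate 2 to 11.7 in KO2 replicate 1.

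Peaks on these genes were weak for their lists. Their fold enrichment, the authors' value at each summit, had a median of 2.42 and ran from 1.29 to 7.73. Of the 412 peaks 73.5% were under 3-fold, against 16.6% of the peaks of all protein-coding genes. In each library the median ribosomal protein peak lay between percentile 3.92 and percentile 7.78 of its own list by fold enrichment. Folds below are given for each library in the order of its replicates, as values only, since a fold has no common scale between lists. Where folds of different libraries are said to overlap or to lie above others, this orders the printed values and no level of m6A. Within a region the highest fold of a library is given, and summits could differ between libraries.

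The 412 peaks formed 97 regions when overlapping peaks of a gene were merged over the 10 lists, numbered here along the chromosome. By summit, 177 peaks lay in coding exons, 179 in introns, 45 in 3' UTRs and 11 in 5' UTRs. The share of intron summits was 39.1% ± 2.93 in the Mettl3 controls (SD, n = 2) and 44.3% ± 4.73 in the knockouts (SD, n = 4; exact permutation, two-sided p = 0.267, adjusted p = 0.444). It was 45.1% ± 4.61 for the Ythdc1 controls and 37.7% ± 12 for the cKO (SD, n = 2 each; exact permutation, two-sided p = 0.667, adjusted p = 0.667). In neither comparison was the intron share told apart, and without cKO replicate 1 the second difference turned from -7.42 to 1.08 percentage points.

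Most of the intron summits lay beside an exon. Of the 48 regions with their median summit in an intron, 39 (81.25%) lay within 50 bp of an exon of the gene, against 16.4% of the 37204 intron regions of other protein-coding genes. Their median distance was 16.5 bp, against 1977 bp. Introns of these genes were short, with a median of 339.5 bp against 1304 bp, and 24.9% of their intron bases lay within 100 bp of an exon against 3.78% elsewhere. Of the 179 intron peaks, 148 (82.7%) overlapped an exon of the gene, against 20.7% in other genes. For these genes few intron summits marked a peak apart from the exons.

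The exceptions were few. The summits farthest from an exon lay in Rps15a, 2008 to 2331 bp away. Intron summits lay 297 and 319 bp away in the first region of Rpl6, 297 to 305 bp in that of Rpl19, 271 bp in that of Rpl14 and 182 to 284 bp in that of Rpl17. Summits in Rps23, Rpl34 and the first region of Rpl29 were 127 to 192 bp away, and those in the first region of Rpl36a 25 to 179 bp. The snoRNAs themselves were almost never under a summit. The 80 genes hold 56 annotated snoRNAs in 29 host genes, and 2 of the 412 summits fell in one, Snord42a in Rpl23a and Gm26205 in Rpl6. Of the 29 host genes 24 had a peak, and of the 51 others 39 did.

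**Figure D3:**
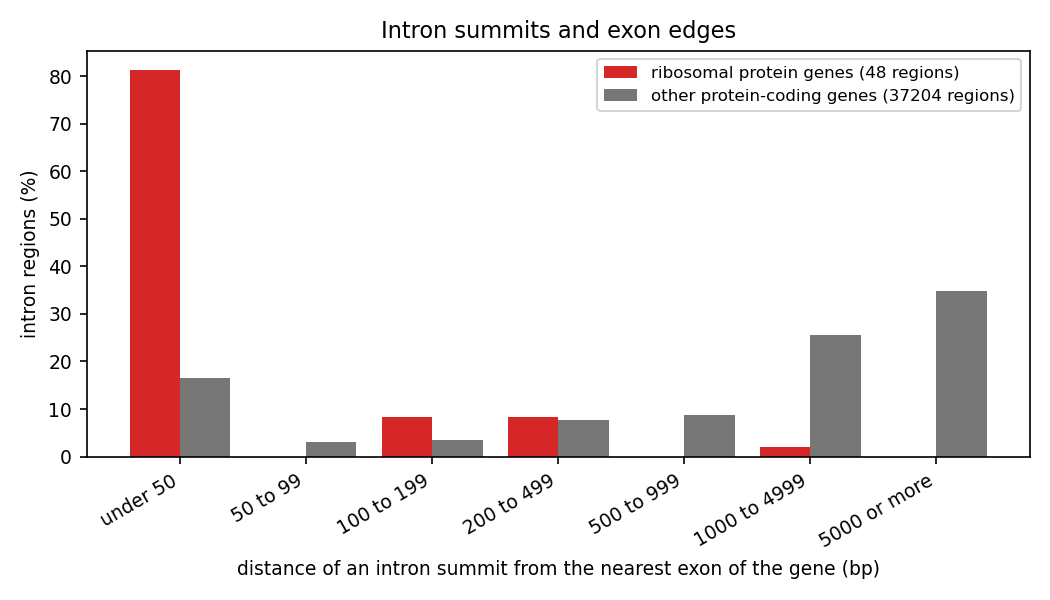
Percentage of intron regions by the distance of their median summit from the nearest exon of the gene, for 48 ribosomal protein regions (red) and 37204 regions of other protein-coding genes (grey). The red bar under 50 bp stands at 81.25% and the grey one at 16.4%.

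Exon summits lay in short exons and close to stop codons. Of the 49 exon regions 15 (30.6%) were in an exon of 400 nt or more, against 63.1% of the exon regions of other genes, and the median exon under a summit was 204 nt long against 677 nt. The genes are short, with a median spliced length of 869 nt against 2549 nt. Of the 49 regions 27 (55.1%) had their summit within 200 nt of the stop codon in the spliced transcript, against 22.1% in other genes. These shares were not matched for transcript length. Within classes of spliced length the ribosomal protein genes had a peak in some list more often than other genes of their length. The other genes were all annotated protein-coding genes of that length and were not matched for expression, which peak lists do not give. Between 500 and 1000 nt, 28 of 40 (70%) did against 26.8%, and between 1000 and 2000 nt 22 of 24 (91.7%) against 45.0%. Of the 11 shortest, up to 500 nt, 9 (81.8%) did against 23.6%.

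GGAC, searched on the sense strand of the spliced transcript, stood within 50 nt of 9 of the 49 exon summits (18.4%), against 49.1% of 23630 windows of the same length in other protein-coding genes. GGACT, a longer form that contains it, stood in 5 windows (10.2%) against 17.4%. Sequence from 8 regions found in 9 or 10 lists is shown as examples with and without GGAC. Each line gives 30 bases of the GENCODE M21 transcript, 5′ to 3′, with GGAC in capitals. The first 3 windows are placed on the GGAC nearest to the region's median summit, which for Rpl4 lay 34 nt upstream of that summit and leaves the summit outside the window. The other 5 are placed on the median summit, and for Rpl10l both Ythdc1 controls and cKO replicate 1 had their summit elsewhere, in the coding sequence.
Rpl26: ccaggctaaagctGGACaaGGACcgcaaga
Rpl41: atgctgagggccgGGACaagctatcGGACt
Rpl4: gttccagagaaggGGACtgcagacaagaag
Rpl30: agctccggctctccgcggtgtcagcccgct
Rpl10l: acctgccttaagaaacaagaaaactgcagt
Rps6: agaatacgctaaacttttggccaagagaat
Rpl23a: ctgaaaggcgtccacagccacaaaaagaag
Rpl35: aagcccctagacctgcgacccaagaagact
The windows of Rpl26 (chr11:68904375-68904404, plus strand), Rpl4 (chr9:64178289-64178318, plus strand), Rps6 (chr4:86854802-86854831, minus strand), Rpl23a (chr11:78182898-78182927, minus strand) and Rpl35 (chr2:39001724-39001753, minus strand) lie in coding exons. Those of Rpl41 (chr10:128548313-128548342, minus strand) and Rpl10l (chr12:66283569-66283598, minus strand) lie in 3' UTRs, and that of Rpl30 (chr15:34443432-34443461, minus strand) in the 5' UTR. None of the last 5 had a GGAC within 50 nt of the summit. Only GGAC and GGACT were searched, so a window without them is not shown to lack m6A. A match is a sequence of letters and no measured site.

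The regions that both Mettl3 controls held mostly stayed in the knockouts. Such regions numbered 16, and 0 of them lacked a peak throughout KO1 and KO2, against a background of 8.31% of 27458 regions of all protein-coding genes. Kept in every library were 15 of the 16 (93.75%), against 66.4%. Of the 26 regions present in all 4 knockout libraries, 5 (19.2%) were absent from both controls and counted as gained, against 4.28% of 20512 regions. Over genes, 3 of the 80 (3.75%) had a peak throughout KO1 and KO2 but no control peak, against 0.601% of protein-coding genes, and 0 had the reverse pattern, against 1.18%.

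The 15 kept regions lay in 15 genes. The highest single fold, 7.73, lay on Rpl10l, an intronless copy of Rpl10 best known from the male germ line. Its region (chr12:66283104-66284290, minus strand) had folds of 7.73 and 5.66 (Mettl3 controls), 4.45 and 3.99 (KO1), 3.45 and 3.75 (KO2), 3.92 and 5.60 (Ythdc1 controls) and 5.06 and 4.82 (cKO). Both Mettl3 controls were above all 4 knockout libraries. Rpl10 itself, whose sequence Rpl10l resembles, had no peak, and reads of near-identical copies may have been placed on either gene.

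Rpl30, a large-subunit protein, had the highest mean fold of the 13 regions found in all lists, at its 5' UTR (chr15:34443334-34443684, minus strand). Folds were 4.04 and 4.98 (Mettl3 controls), 4.24 and 4.26 (KO1), 5.33 and 5.38 (KO2), 5.56 and 5.36 (Ythdc1 controls) and 6.76 and 6.64 (cKO). Both KO1 values lay between the 2 Mettl3 controls and both KO2 values above them, and the cKO stood above the Ythdc1 controls. Pile-up at its summit was 123 to 165 reads over a background of 18.7 to 37.0. Rpl7a, a large-subunit protein and host of 3 snoRNAs, had the strongest region with intron summits (chr2:26910856-26911551, plus strand). Its folds were 3.73 and 4.15, 3.73 and 3.45, 5.08 and 4.62, 6.74 and 7.56, and 4.83 and 4.67 in the same order of groups. The Ythdc1 controls were the highest of the 10 libraries.

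Other large-subunit regions kept without Mettl3 had lower folds. Rpl4, which lines the exit tunnel for the new chain, had 1.91 and 2.13 (Mettl3 controls), 2.09 and 2.12 (KO1), 1.84 and 2.04 (KO2), 2.48 and 3.53 (Ythdc1 controls) and 2.95 and 2.65 (cKO) at its last exon (chr9:64178163-64178464, plus strand). Rpl5, which binds 5S ribosomal RNA and can bind Mdm2, had 1.87 and 2.23, 2.66 and 2.94, 2.79 and 2.56, 2.36 and 2.38, and 2.54 and 2.46 (chr5:107907771-107908039, plus strand). At this region all 4 knockout libraries lay above both Mettl3 controls, while at Rpl4 the groups overlapped. Rpl23a, at the tunnel exit, had 2.97 and 3.18, 2.22 and 2.91, 3.12 and 2.67, 2.99 and 3.14, and 3.28 and 3.12 (chr11:78182635-78183488, minus strand). The 2.97 of Mettl3 control replicate 1 is from an intron summit, and at the coding exon summit of the other libraries it had 2.77. Rpl13a had 2.57 and 2.12, 1.87 and 2.43, 2.35 and 2.77, 2.30 and 2.25, and 2.1 and 2.43 (chr7:45125623-45126323, minus strand), partly in the overlapping gene model Gm45713. In both genes the control and knockout values overlapped.

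Rpl36 had 2.15 and 2.54, 1.93 and 2.21, 2.74 and 2.90, 2.70 and 2.74, and 2.35 and 2.75. Rpl41, which encodes the shortest of the ribosomal proteins, had 2.12 and 2.43, 2.08 and 2.26, 1.67 and 1.85, 2.85 and 3.25, and 2.80 and 3.03. The KO1 values of Rpl41 are from intron summits, and in the 3' UTR KO1 replicate 1 had 1.82, so that KO1 and KO2 overlapped there. Rpl13, in which every summit also lay in the gene model Gm20388, had 1.34 and 1.95, 1.39 and 1.82, 1.42 and 1.78, and 2.04 and 1.74 in the first 4 groups, no peak in cKO replicate 1 and 1.76 in replicate 2. Its control and knockout folds overlapped.

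Among the small-subunit genes, Rps15 had folds of 3.22 and 3.49 (Mettl3 controls), 3.33 and 3.28 (KO1), 3.36 and 4.01 (KO2), 4.22 and 4.48 (Ythdc1 controls) and 3.29 and 3.82 (cKO) (chr10:80293591-80294038, plus strand). Rps15a had 4.75 and 3.81, 3.60 and 4.03, 2.73 and 3.08, 2.95 and 3.13, and 3.10 and 2.52 at its intron region far from any exon (chr7:118111897-118113139, minus strand). The Mettl3 control values of Rps15a overlapped those of KO1 and lay above those of KO2. Rps3, at the messenger RNA entry of the small subunit, had 1.85 and 1.76, 2.02 and 2.39, 1.88 and 2.03, 2.23 and 2.36, and 2.33 and 2.47 (chr7:99478574-99479058, minus strand), at summits that differed between libraries. Rps6, the small-subunit target of the S6 kinases, had 2.21 and 2.09, 1.93 and 2.23, 1.69 and 1.90, 2.00 and 1.93, and 2.42 and 3.13 (chr4:86854577-86855077, minus strand). Its control and knockout values overlapped, and the cKO folds were above those of the Ythdc1 controls. Its pile-up was lower in the cKO, at 273 and 247 reads against 470 and 409. Its local background was lower there too, at 112 and 78.2 reads against 234 and 212. Rps29 had 2.16 and 2.64, 3.12 and 2.83, and 3.62 and 3.70. It then had 2.24 in Ythdc1 control replicate 1 and 2.04 in cKO replicate 1. Its 4 Mettl3 knockout folds thus lay above both Mettl3 controls. The KO2 folds are from intron summits, and those of both Mettl3 controls from 3' UTR summits.

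**Figure D4:**
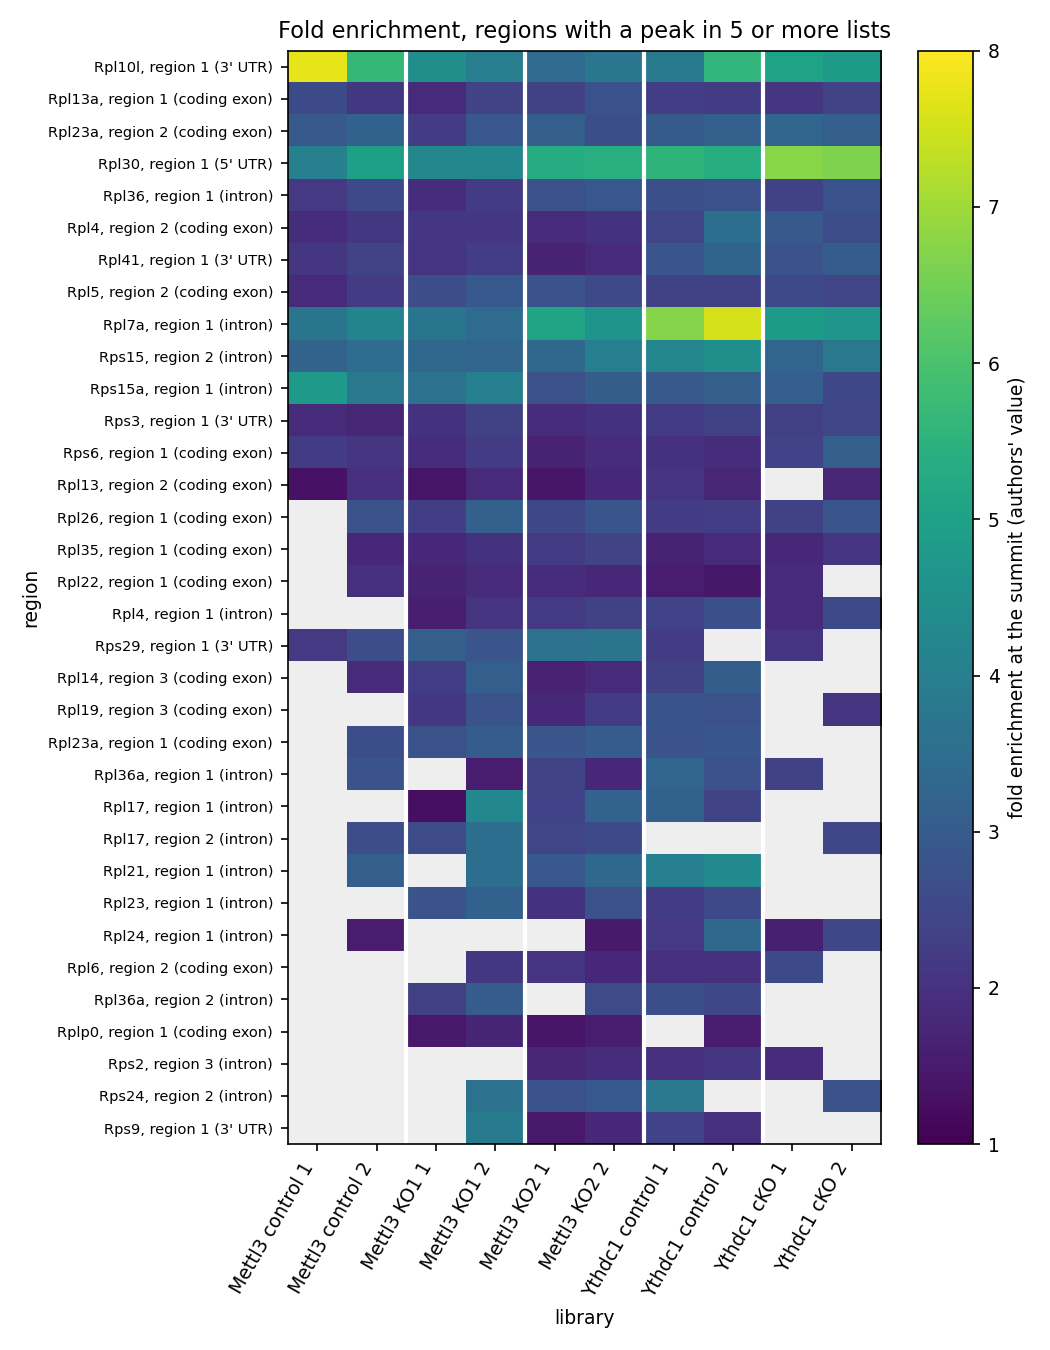
Fold enrichment at the summit (colour, the authors' value) for each region of a ribosomal protein gene with a peak in 5 or more lists (rows, numbered along the chromosome, with the most common summit class) in each library (columns, groups split by white lines). Pale grey marks no peak. Grey is most frequent in the first column, Mettl3 control replicate 1, and in the last 2 columns, the cKO.

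The 5 gained regions lay on Rpl17, Rpl19, Rpl23, Rpl4 and Rplp0. Rplp0, the base of the acidic stalk that recruits elongation factors, had a coding exon region (chr5:115563207-115563384, plus strand) of 1.47 and 1.71 (KO1), 1.40 and 1.55 (KO2) and 1.52 in Ythdc1 control replicate 2 alone. Rpl23 had an intron region (chr11:97778137-97778478, minus strand) of 2.79 and 3.17 (KO1), 2.03 and 2.74 (KO2) and 2.24 and 2.54 (Ythdc1 controls), with none in the cKO. Among the gained regions 4 of 5 had a peak in both Ythdc1 controls. Rpl19 had a coding exon region (chr11:98030166-98030359, plus strand) of 2.14 and 2.78 (KO1), 1.80 and 2.21 (KO2), 2.81 and 2.74 (Ythdc1 controls) and 2.09 in cKO replicate 2. Rpl4 had an intron region (chr9:64177608-64177937, plus strand) of 1.60 and 2.06, 2.19 and 2.36, 2.41 and 2.71, and 1.85 and 2.55 in KO1, KO2, the Ythdc1 controls and the cKO. None of the 5 regions was counted when only peaks of at least 3-fold were used. The fold of Rpl17 region 1 was 1.29 and 4.25 (KO1), 2.40 and 3.21 (KO2) and 3.18 and 2.42 (Ythdc1 controls), and the cKO had no peak.

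Leaving out a library loosens the rule for a gained or lost region, so the counts could then only stay or rise. The gained count was 11 without Mettl3 control replicate 2 and 12 without KO1 replicate 1. Set against the controls alone, 9 regions were gained in KO1 and 25 in KO2. This rule is looser as well, and the share over all protein-coding genes was computed for none of these looser rules. The count of lost regions was 1 without KO2 replicate 1.

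In the cKO many regions of the controls were missing. Of 46 regions with a peak in both Ythdc1 controls, 19 (41.3%) had none in either cKO library, against a background of 17.7% of 27451 regions of all protein-coding genes. Kept were 18 (39.1%), against 72.1%. Of 18 regions found in both cKO libraries, 0 were absent from both controls, against 14.9% of 25339 regions. Over genes, 12 of the 80 (15.0%) had a peak in both Ythdc1 controls and in neither cKO library, against 3.10% of protein-coding genes, and 0 showed the reverse, against 2.01%. Among them were Rpl10a, Rpl14, Rpl18, Rpl21, Rpl23, Rpl3, Rpl7, Rpl8, Rps9 and Rpsa. Under the looser rule without Ythdc1 control replicate 2, 31 of 60 control regions were lost. When either cKO library was left out, 1 region was gained. The share over all protein-coding genes was not computed for these looser rules.

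High folds among the lost regions lay on Rpsa, a small-subunit protein also known as a laminin receptor, and on Rpl21. The Rpsa region (chr9:120131309-120131512, plus strand, coding exon) had folds of 3.78 and 4.62 (Ythdc1 controls) and 2.66 and 2.76 (KO2), with no peak in the other 6 libraries. Rpl21 (chr5:146835475-146835957, plus strand, intron) had 4.01 and 4.34 in the Ythdc1 controls, 3.13 in Mettl3 control replicate 2, 3.52 in KO1 replicate 2, and 2.89 and 3.33 in KO2. Peaks in both Ythdc1 controls and in no other library were found for the second region of Rpl10a (2.18 and 2.00), for the first region of Rpl18 (2.31 and 2.39), for the first region of Rps24 (1.39 and 1.65) and for the first region of Rpl6 (2.60 and 1.49). These 4 regions were thus found in 1 group of the 5.

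Other lost regions also had peaks in Mettl3 knockouts. Rpl14 had 2.37 and 3.06 at region 3 in the Ythdc1 controls, 1.84 in Mettl3 control replicate 2, 2.29 and 3.13 (KO1) and 1.64 and 1.87 (KO2). The first region of Rpl23a had 2.79 and 2.86 in the Ythdc1 controls, 2.67 in Mettl3 control replicate 2, 2.74 and 3.04 (KO1) and 2.85 and 3.04 (KO2). Both were therefore absent from the cKO and from Mettl3 control replicate 1. Rpl36a had 2.69 and 2.51 at its second region, 2.33 and 3.04 in KO1 and 2.60 in KO2 replicate 2. Rpl7 had 2.96 and 2.68, with 2.25 and 2.70 in KO2. Rps3 had 2.62 and 1.89 at region 3, with 2.20 and 2.81 in KO2. In none of these 3 did a Mettl3 control or cKO library have a peak.

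Rpl8 had 2.74 and 2.98 at its second region in the Ythdc1 controls, 2.76 in KO1 replicate 2 and 2.15 in KO2 replicate 2. Rps9 had 2.41 and 1.98, with 3.86 in KO1 replicate 2 and 1.48 and 1.80 in KO2. These are again regions without a peak in the Mettl3 controls and in the cKO. Rpl19 had 2.65 and 3.32 at its first region, with 2.09 in KO2 replicate 2. Rpl3 had 1.45 and 1.54 at its first region, with 1.62 in KO2 replicate 2. With peaks of at least 3-fold alone, 4 of the 9 regions in both Ythdc1 controls were lost. The share over all protein-coding genes was not computed at that threshold. Of the 19 lost regions, 14 had a peak in at least 1 Mettl3 knockout library, 16 in neither Mettl3 control and 0 in both. Rpl17 and Rpl23 were in both sets, as 2 regions gained without Mettl3 and lost without Ythdc1.

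Of the 18 regions kept in the cKO, 13 were also kept in the Mettl3 knockouts. The other 5 included Rpl26 and Rpl35, proteins at the tunnel exit, which had a peak in every list but Mettl3 control replicate 1. Rpl26 (chr11:68904262-68904456, plus strand) had 2.72 in Mettl3 control replicate 2, 2.30 and 3.14 (KO1), 2.51 and 2.85 (KO2), 2.23 and 2.27 (Ythdc1 controls) and 2.36 and 2.86 (cKO). Rpl35 (chr2:39001672-39001885, minus strand) had 1.77, then 1.79 and 2.03, 2.19 and 2.44, 1.68 and 1.83, and 1.80 and 2.07 in the same order. The cKO values were above both Ythdc1 controls for Rpl26 and overlapped them for Rpl35. Rpl29 had 3.60 and 3.30 for the Ythdc1 controls and 3.08 and 3.78 for the cKO at its second region, and none in the 6 libraries of the Mettl3 comparison. Rpl24, in an intron that also lies in Gm28037, had 2.16 and 3.33 and 1.61 and 2.49 in the Ythdc1 controls and the cKO, 1.54 in Mettl3 control replicate 2 and 1.5 in KO2 replicate 2. Rpl4 region 1, given above, was the fifth.

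A further set of genes had peaks in some libraries, with both libraries of at least 1 group among them. In KO2 but in no control library stood Rpl27a (2.31 and 2.14), Rpl38 (2.58 and 2.78), the second region of Rps25 (2.63 and 2.54) and the second region of Rps3 (2.22 and 2.41), and none of these had a peak in any other library. Rpl12 (2.00 and 1.54), the first region of Rpl5 (1.84 and 1.83), the second region of Rpl7a (1.97 and 1.37) and Rpl9 (2.56 and 2.62) had peaks in both KO2 libraries and in 1 KO1 library, at 1.43, 2.01, 1.38 and 2.52. KO2 was also the group with the highest local background at these genes, and the part of that was not tested.

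In KO1 alone stood the first region of Rpl10a (1.56 and 1.68) and region 3 of Rpl36a (3.35 and 3.37). Rps26, near the messenger RNA exit, had 6.01 and 2.47 in KO1 and 4.29 in KO2 replicate 2. Rpl39 had 2.06 and 2.21 in KO1, 1.63 in KO2 replicate 2 and 2.39 in Mettl3 control replicate 2. The second region of Rpl14 had 2.07 and 2.44 in KO1, 1.76 in KO2 replicate 2 and 1.67 in Mettl3 control replicate 2. None of these had a peak in the Ythdc1 libraries.

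The second region of Rpl17 had 2.65 in Mettl3 control replicate 2, 2.62 and 3.52 (KO1), 2.45 and 2.57 (KO2) and 2.49 in cKO replicate 2. Rpl22 had 1.94 in Mettl3 control replicate 2, 1.68 and 1.85 (KO1), 1.88 and 1.81 (KO2), 1.55 and 1.46 (Ythdc1 controls) and 1.83 in cKO replicate 1. The first region of Rpl36a had 2.79 in Mettl3 control replicate 2, 1.55 in KO1 replicate 2, 2.43 and 1.81 (KO2), 3.28 and 2.73 (Ythdc1 controls) and 2.36 in cKO replicate 1. All 3 lacked a peak in Mettl3 control replicate 1. The second region of Rpl6 had 2.13 in KO1 replicate 2, 2.07 and 1.82 (KO2), 1.96 and 1.93 (Ythdc1 controls) and 2.58 in cKO replicate 1. Region 3 of Rps2 had 1.75 and 1.90 (KO2), 1.98 and 2.11 (Ythdc1 controls) and 1.83 in cKO replicate 1. The second region of Rps24 had 3.65 in KO1 replicate 2, 2.76 and 2.92 in KO2, 3.78 in Ythdc1 control replicate 1, and 2.79 in cKO replicate 2. None of these 3 had a peak in a Mettl3 control.

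Rplp1, of the acidic stalk, had 1.95 in KO1 replicate 2, 1.46 and 1.64 in KO2 and 1.51 in Ythdc1 control replicate 2. Rpl15 had 3.12 and 2.99 in KO2 and 2.46 in Ythdc1 control replicate 1. The first region of Rpl29 had 1.63 and 2.21 in KO2 and 1.97 in Ythdc1 control replicate 1. KO2 is the group these 3 have in full. The first region of Rpsa had 1.98 and 2.26 in KO2 and 2.19 in Ythdc1 control replicate 2. The Ythdc1 controls were the full group for the first region of Rpl13 (4.02 and 2.06, with 3.04 in cKO replicate 2) and the second of Rpl35 (3.11 and 3.34, with 2.29 in cKO replicate 2).

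The genes left had no region in both libraries of any group. Rpl11, which like Rpl5 can bind Mdm2, and Rpl34 had a single peak in Ythdc1 control replicate 1, Rps10 in Ythdc1 control replicate 2, and Rps28 in cKO replicate 1. Rpl37 and Rps21 had theirs in KO1 replicate 2, Rpl28 its 2 in KO2 replicate 1, and Rplp2, Rps19 and the 2 peaks of Rpl32 were in KO2 replicate 2. The folds of these peaks ran from 1.74 to 3.43. Rps18 and Rps23 each had peaks in 2 libraries of different groups. The 17 genes without a peak were Rpl10, Rpl27, Rpl31, Rpl35a, Rpl37a, Rpl39l, Rpl3l, Rps12, Rps13, Rps14, Rps16, Rps20, Rps27, Rps27a, Rps27l, Rps4x and Rps7. Rpl3l is best known from muscle, and Rps27a is made as a fusion with ubiquitin. No peak means that none was called at this depth and background, not that the RNA carried no m6A.

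Other genes of ribosome production and translation had peaks more often and lost a smaller share of regions in the cKO. All 45 ribosome biogenesis genes had a peak, as did all 20 genes of mTOR signalling and the S6 kinases, 64 of 71 translation factors and 76 of 78 mitochondrial ribosomal proteins. Without Mettl3, 6 of 116 control regions of the biogenesis genes were lost (5.17%), 4 of 82 of the signalling genes (4.88%), 7 of 132 of the translation factors (5.30%) and 3 of 83 of the mitochondrial ribosomal proteins (3.61%). Polr1a, the largest subunit of RNA polymerase I, lost 3 regions. Gained regions were 5.98%, 4.48%, 5.88% and 5.63% of those present in all knockout libraries, in the same order. Over all protein-coding genes 8.31% were lost and 4.28% gained, which stands beside these shares as background.

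Without Ythdc1, 32 of 162 biogenesis regions (19.8%), 11 of 82 signalling regions (13.4%), 38 of 164 translation factor regions (23.2%) and 30 of 110 mitochondrial ribosomal protein regions (27.3%) were lost. Over all protein-coding genes the share was 17.7%. The share in cytoplasmic ribosomal proteins, 41.3%, was above all 4, and the difference was not tested. Pseudogenes of ribosomal proteins lost a larger share, 5 of 10 regions (50%). Fbl, the methyltransferase of box C/D snoRNA particles, lost 4 regions and Ubtf, an RNA polymerase I factor, lost 3. Gained regions numbered 0 of 118, 5 of 67, 3 of 119 and 2 of 74, against 14.9% over all protein-coding genes. The number of mitochondrial ribosomal protein genes with a peak was 61 and 59 (Mettl3 controls), 61 and 59 (KO1), 68 and 68 (KO2), 69 and 70 (Ythdc1 controls) and 55 and 57 (cKO). This list was thus also higher in KO2 and lower in the cKO than in the matching controls, by fewer genes than the cytoplasmic list. Translation factors numbered 54 and 53, 55 and 59, 55 and 57, 57 and 58, and 51 and 48 in the same order. Pseudogenes of ribosomal proteins numbered 13 and 11, 10 and 16, 22 and 22, 11 and 14, and 6 and 6. Both lists were likewise higher in KO2 and lower in the cKO than in their controls. So was the biogenesis list (42 and 42, 41 and 45, 44 and 43, 42 and 42, and 41 and 39). The signalling list overlapped its controls in both comparisons.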

How the data were processed

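Peak lists of 10 m6A immunoprecipitated libraries were used. The submitters' processing notes name build mm10 and the tools MACS2, HISAT2 2.1.0, Trimmomatic 0.38 and CASAVA. No version, setting or control of MACS2 is stated in the labels. The deposited lists give each peak a display score, a fold enrichment at the summit (a ratio), a −log10 p-value, a −log10 q-value and a summit offset, per the file format. They were called per library and strand, by the peak names, and hold peaks of at least 150 bp and −log10 q of at least 2.0.

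Summits were assigned to same-strand genes of GENCODE M21 (GRCm38, the assembly of mm10) and classed on basic transcripts, with UTR or coding exon taking precedence over intron. Peaks of a gene overlapping by at least 1 bp over the 10 lists formed a region. A region was lost with a peak in both controls and no knockout library, gained with the reverse, and kept with a peak in every library. Pile-up and background were solved from fold and p-value under a Poisson model, within 0.002 on the −log10 scale. For 3000 peaks per list, leaving out those of −log10 p of 300 or more, 100% gave whole reads. Read totals were not given, so depth is unknown; the most common background was 14.88 to 20.03 reads.

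Library values were compared by exact permutation tests with Benjamini-Hochberg adjustment over 4 tests (Python 3.11.15, scipy 1.17.1). The merging and calling code was run on simulated lists in which no peak dropped out between replicates. This checks the code and not calls on weak peaks. Every gene with a peak was to be named; a few genes are counted but their own values are not reported here. Folds of each library are given where a region had a peak in both libraries of a group, and further pathway genes by most regions lost or gained. The genes, lists and tests were chosen with earlier results of these data known.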

Additional observations from a re-analysis of the deposited data

Results flagged for a closer look

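The number of ribosomal protein genes with a peak moved in opposite directions in the 2 knockouts. It was 20.25 genes higher in the Mettl3 knockout libraries than in their controls, with every library 7.5 to 32.5 genes above the control mean. In the cKO it was 21 genes lower, a difference of -21, with the libraries at -21.5 and -20.5. The 2 comparisons share no library, and the difference between them was not tested. The local background at these genes was higher in KO2 and lower in the cKO than in their controls, while KO1 overlapped the Mettl3 controls over all peaks, and its part in the result was not tested.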

How the results depend on the processing

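The differences in the number of genes with a peak kept their direction under all alternatives run: 50% of the peak in the gene body, peaks of −log10 q of at least 5 or fold of at least 3, the 4 paralogues Rpl22l1, Rpl7l1, Rpl36al and Rps27rt added, and summits in another gene removed. With fold of at least 3 they shrank to 4.75 and -7, and KO1 alone gave 13 and KO2 alone 27.5. Leaving out single libraries gave 15.75 to 24.75 genes for Mettl3 and -21.5 to -20.5 for Ythdc1. The intron share gave 3.09 to 7.23 percentage points for Mettl3, and -15.9 to 1.08 for Ythdc1, which turned its direction. With a replicate block the differences stayed at 20.25, -21, 5.16 and -7.42, with exact permutation p of 0.222, 0.5, 0.333 and 1. The block changed no call, and none could pass. Peak counts per gene of same-numbered libraries did not deviate together (r of -0.0174 to 0.0335 across 12186 genes). Replicate 2 had more ribosomal protein genes with a peak in all Mettl3 groups (25 against 16, 39 against 28, 53 against 43). In the Ythdc1 controls (43 against 44) and the cKO (22 against 23) it had fewer. Whether same-numbered libraries share a batch was not tested.

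Counts of regions moved with the settings. Leaving out a library loosens the rule, so these counts could only stay or rise. With single libraries left out, lost regions ran from 0 to 1 for Mettl3 and from 23 to 31 for Ythdc1. Gained regions ran from 5 to 12 and from 0 to 1. The gained count of Mettl3 was 0 with peaks of at least 3-fold. The lost count of Ythdc1 was then 4 of 9 control regions, beside 19 of 46 with all peaks. The lost count of Mettl3 was 1 with the paralogues. With 3 of 4 knockout libraries enough, Mettl3 gave 1 lost and 15 gained. As alternatives chosen after seeing the data, KO1 alone gave 1 lost and 9 gained, and KO2 alone 25 gained. These rules with fewer libraries are looser, and no share over all protein-coding genes was computed for them. The cause was not tested. Depth is unknown, so no limit of detection is given.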

Other observations

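Pseudogenes of ribosomal proteins, copies of the messenger RNA in the genome, also carried peaks. Of 300 pseudogenes named after a ribosomal protein, 36 (12%) had a peak in at least 1 list. Rps6-ps4, Rps19-ps3 and Rpl36a-ps3, chosen after their values were seen, had one in all 10 lists, with folds of 2.67 to 6.73, 2.68 to 6.17 and 3.86 to 6.83. Rps19 itself had a peak in 1 list. Rps12 had none, while Rps12-ps26 had one in 7 lists at folds of 2.60 to 4.24. Of pseudogene regions, 2 of 10 in both Mettl3 controls were lost (20%) and 2 of 7 in all Mettl3 knockout libraries were gained (28.6%). Over all protein-coding genes these shares were 8.31% and 4.28%. The files do not show how reads that match several copies were placed.

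Rpl32 had 2 peaks, both in KO2 replicate 2, in 2 different coding exons (chr6:115805627-115805777 and chr6:115807126-115807276, minus strand). Both had a fold of 1.88, and they were named after their values were seen.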
